A study of Mus musculus with 5 samples.

Results

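The genes described here are the cadherins and protocadherins of the mouse, taken as every gene with a probe on the array whose symbol begins with Cdh and a digit, with Cdhr or with Pcdh. The rule found 73 genes among 19897 with a named probe, and it used no measured value. They comprise 5 type I and 13 type II classic cadherins, 9 other cadherins, 8 delta protocadherins, 3 other non-clustered protocadherins, and 35 clustered protocadherins (7 Pcdha, 22 Pcdhb and 6 Pcdhg genes). Another 25 annotated genes of these names, 16 of them Pcdhg and 7 Pcdha, were without a matched probe and are left aside.

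Cadherins are transmembrane proteins that join neighbouring cells in a calcium-dependent manner, and the classic members couple through catenins to the actin cytoskeleton. The exchange of E-cadherin for N-cadherin accompanies the formation of the neural tube, and type II cadherins are known for sorting spinal motor neurons into pools. Clustered protocadherins are chosen by each neuron from arrays of alternative promoters and give it a surface identity, while delta protocadherins act in axon growth and synapse formation.

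Gene expression was measured on 1 Agilent one-colour array for each of 5 stages of the differentiation of wild-type male embryonic stem (ES) cells into motor neurons. The ES sample was undifferentiated. The next 3 samples were embryoid bodies (EBs, floating cell aggregates) after 8 h of retinoic acid (RA) on Day2, after 1 day of RA on Day3 and after 2 days on Day4, and the last was motor neurons after 5 days of RA on Day7, whose tissue is also labelled as embryoid bodies. The treatment protocol in the labels applies RA and Shh from day 2 to day 5, whereas the study names the smoothened agonist SAG as the second inducer. The samples are bulk cultures and the labels name no sort, so fewer cells of a type and less RNA per cell cannot be told apart.

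Values are quantile-normalized log2 signals, on which 1 unit is a doubling, and changes are differences of these between 2 arrays for the same probe. They were taken from ES to Day2, ES to Day3, Day3 to Day4, Day4 to Day7 and ES to Day7. A probe's level says nothing of its level relative to another probe, so genes are not ranked by brightness. The scanner software marks whether a probe is well above background. A probe that is not has only an upper limit, so that a change measured against it is a lower bound ("at least"). With 1 array per stage there was no spread between replicates and no test, and a gene is said to have risen or fallen only where it changed at least 2-fold, a fixed rule of size. Fold sizes depend on the processing: of 140 changes past 2-fold 119 moved by over 1.5 times under at least 1 alternative. Ranges are therefore given for many of the steepest, and sizes without a range are those of the main setting. The number of arrays limits the precision of all values, and repeated spots of a probe on an array had a median SD of 0.06 to 0.11. On the Day2 array 91.7% of all genes were well above background, against 72.7% to 77.6% on the others, and Day7 alone was on a second slide, so slide and stage cannot be told apart for it. Of the marker lists, 4 of 6 ES cell markers fell from ES to Day7, and 6 of 6 motor neuron markers and 5 of 5 neuronal markers rose from Day4 to Day7. Of 5 neural progenitor markers 3 rose from ES to Day3, and from Day4 to Day7 Nkx6-1 rose while Pax6 and Olig2 fell. Olig2 was at 10.34 in ES cells, above its 8.47 on Day2 and 7.87 on Day3.

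More cadherin and protocadherin genes were above background on Day7 than in ES cells. Each gene was read at 1 probe, the brightest on average. Of the 73 genes, 30 were well above background in ES cells, then 62 (Day2), 31 (Day3), 49 (Day4) and 61 (Day7). Counting a gene by any of its probes added Cdh11 on Day3 and Pcdh7 on Day4. As shares these were 41.1%, 84.9%, 42.5%, 67.1% and 83.6%, while the share over all genes on Day7 was 76.2%. The Day2 number belongs to the array on which 91.7% of all genes were above background. Type I cadherins were above background on every array, whereas the Pcdhb cluster went from 2 of 22 genes in ES cells to 4 on Day3, 9 on Day4 and 21 on Day7. Over all groups 23 genes were above background on all 5 arrays, 5 on Day2 only, and Cdh17, an intestinal and liver cadherin, on none. Of the 72 genes above background on at least 1 array, 46 had their highest signal on Day7 and were above background there (63.9%, against 26.9% of all such genes).

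**Figure D1:**
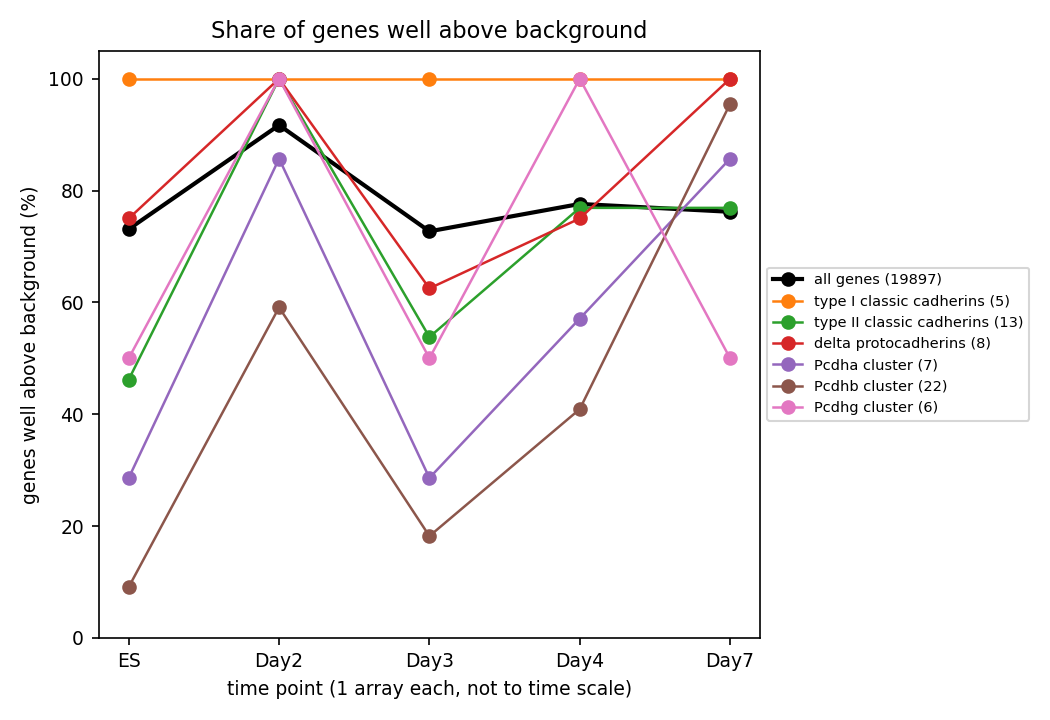
Share of genes of each group, in percent, whose probe was well above background on each of the 5 arrays, with all 19897 genes in black. The Pcdhb cluster went from 2 to 21 of 22 genes between ES cells and Day7, and all groups but the type I cadherins peaked or rose on Day2, where the share over all genes was also high.

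Among the type I classic cadherins, Cdh1 fell and Cdh2 rose over the course. Cdh1 encodes E-cadherin, which holds ES cells and epithelia together. The log2 signal of the gene was 13.79 in ES cells, then 13.65 (Day2), 13.48 (Day3), 12.69 (Day4) and 9.15 (Day7). The first 4 arrays were high and Day7 lay far below them. From Day4 to Day7 Cdh1 fell by 3.54 on the log2 scale (11.6-fold), and from ES cells to Day7 it fell by 4.64 (24.9-fold). From Day4 to Day7 all 5 epithelial markers of a list, Epcam among them, also fell, and the log2 of their summed signal was 16.63 on Day4 and 14.17 on Day7. The part of these cells in the result was not tested.

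Cdh2 encodes N-cadherin, the main classic cadherin of neural progenitors and neurons. Over the 5 arrays its log2 signal was 10.94 in ES cells, then 10.69 (Day2), 11.87 (Day3), 13.04 (Day4) and 14.81 (Day7). It was thus higher on each array after Day2 than on the one before. Cdh2 rose by 1.17 from Day3 to Day4 and by 1.77 (3.41-fold) from Day4 to Day7, and by 3.87 (14.7-fold) from ES cells to Day7. Its change of 0.93 from ES to Day3 stayed under 2-fold, and its second probe had signals of 11.35, 9.89, 11.22, 12.40 and 14.01 over the 5 arrays. The Day3 to Day4 rise was 0.65 under the normalization or background correction that moved it most, and then under 2-fold.

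The other type I cadherins took separate courses. Cdh4 encodes R-cadherin, found in retina and brain. Its log2 signal was 9.54 in ES cells, then 8.60 (Day2), 8.80 (Day3), 8.73 (Day4) and 11.87 (Day7). Day7 stood above the other 4, with a rise of 3.14 (8.82-fold, and 4.16-fold to 20.6-fold over the alternatives) from Day4. Of its other probes, the one at 7.92 on Day4 was at 10.70 on Day7, while the dimmest was at 4.92 and 5.18. Cdh3 encodes P-cadherin, a cadherin of placenta and epithelia. The log2 signal of the gene was 10.41 in ES cells, then 8.55 (Day2), 8.94 (Day3), 9.40 (Day4) and 8.37 (Day7). ES cells were highest, and Cdh3 fell by 1.86 to Day2 (3.63-fold) and by 2.04 to Day7 (4.10-fold). The fall of 1.03 from Day4 to Day7 turned to a change of 0.27 without normalization. Cdh15, the muscle cadherin, varied less, with signals of 7.51, 8.45, 8.31, 8.33 and 7.78 over the 5 arrays and no change of 2-fold.

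**Figure D2:**
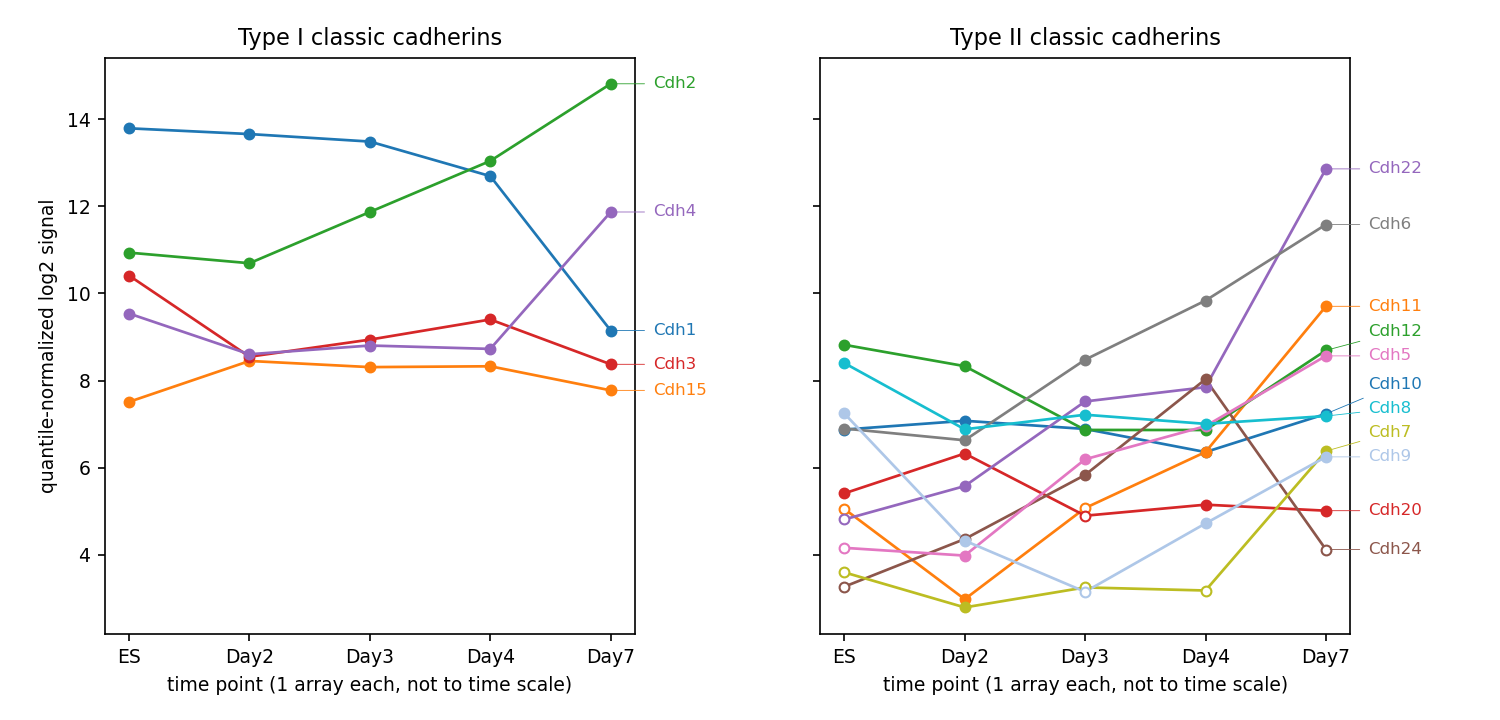
Quantile-normalized log2 signal of the type I cadherins and of 11 type II cadherins on the 5 arrays, 1 point per array, with open circles for probes not well above background; heights of different genes cannot be compared. Cdh1 ended at 9.15 and Cdh2 at 14.81 on Day7, and Cdh22 rose by 5.01 and Cdh11 by 3.34 from Day4 to Day7 (the second Cdh11 probe, not drawn, by 0.65).

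Type II cadherins rose more often than they fell in the step to motor neurons. Of 11 with a value from Day4 to Day7, 7 rose, 1 fell and 3 changed less than 2-fold, with a median change of 1.61. Over all genes in this step 18.1% rose, 18.1% fell and the median was -0.12. Among the 9 type II genes above background on both arrays 6 rose and 0 fell, against 16.3% of all such genes raised.

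Cdh22 was known first from pituitary and brain. Over the 5 arrays its log2 signal was not above background in ES cells (4.82), and then 5.58 (Day2), 7.52 (Day3), 7.85 (Day4) and 12.86 (Day7). It stepped up on Day3 and again on Day7, by at least 6.53-fold from ES to Day3 (2.82-fold to 7.62-fold over the alternatives) and by 5.01 on the log2 scale (32.2-fold) from Day4 to Day7. Cdh6, expressed in kidney and neural crest, had a log2 signal of 6.90 in ES cells, then 6.63 (Day2), 8.48 (Day3), 9.84 (Day4) and 11.58 (Day7). Each array after Day2 was above the one before, and Cdh6 rose 2.99-fold from ES to Day3, 2.56-fold from Day3 to Day4 (0.99 on the log2 scale under the alternative that lowered it most) and 3.35-fold from Day4 to Day7. Cdh11, the osteoblast cadherin also found in mesenchyme, had at its brighter probe a log2 signal of 5.06 in ES cells and 5.08 on Day3, neither above background, and of 2.99 on Day2, 6.36 on Day4 and 9.70 on Day7. Day7 was highest, with a rise of 3.34 (10.1-fold, and 3.99-fold to 27.4-fold over the alternatives) from Day4. The second probe was above background on Day3 too, at 5.89, and went from 6.32 to 6.98 from Day4 to Day7, less than 2-fold.

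Cdh24 took a course of its own. Its log2 signal was 3.27 in ES cells, not above background, then 4.37 (Day2), 5.84 (Day3), 8.03 (Day4) and 4.12 (Day7), again not above background. It peaked on Day4, after a rise of 2.20 (4.58-fold) from Day3, and then fell at least 10.4-fold (3.54-fold to 15.0-fold over the alternatives). This made Cdh24 the only type II cadherin of the 11 with a value to fall from Day4 to Day7. Both changes kept to at least 2-fold under every alternative with a value.

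The start regions of Cdh22 and Cdh24, which moved farthest up and down among the type II genes from Day4 to Day7, were both rich in CG dinucleotides, the site of DNA methylation. They are shown from RefSeq on GRCm38.p6, 250 bases before to 50 after the start, read 5′ to 3′ on the gene's own strand with CG in capitals. Cdh22 lies at chr2:165234688-165234987 on the minus strand with 38 CG, a number reached by 4.95% of 32851 promoters. Cdh24 lies at chr14:54641315-54641614 on the minus strand with 30 CG, a number reached by 11.7% of promoters. The median was 11 CG over the counted promoters of cadherins and protocadherins. Cdh8, Cdh20 and Pcdh19, which changed less than 2-fold from Day4 to Day7, had 21, 18 and 18 CG. Cdh6, Cdh9 and Cdh12, which rose, had 8, 8 and 9. Whether the CG number goes with the change was not tested.
Cdh22: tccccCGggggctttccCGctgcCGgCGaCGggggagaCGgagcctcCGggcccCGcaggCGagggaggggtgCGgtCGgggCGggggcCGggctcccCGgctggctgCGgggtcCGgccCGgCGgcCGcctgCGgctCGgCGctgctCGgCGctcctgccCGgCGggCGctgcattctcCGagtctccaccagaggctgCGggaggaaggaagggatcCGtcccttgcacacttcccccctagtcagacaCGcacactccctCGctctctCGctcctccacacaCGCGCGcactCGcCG
Cdh24: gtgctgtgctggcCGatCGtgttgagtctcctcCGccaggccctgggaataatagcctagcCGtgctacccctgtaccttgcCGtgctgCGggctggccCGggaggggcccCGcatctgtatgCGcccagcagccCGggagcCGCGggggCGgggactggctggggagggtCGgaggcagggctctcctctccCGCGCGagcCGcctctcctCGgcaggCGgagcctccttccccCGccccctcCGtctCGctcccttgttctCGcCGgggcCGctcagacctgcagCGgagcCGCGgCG

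Cdh5 encodes VE-cadherin, the adhesion protein of endothelial cells. The log2 signal of the gene was 4.16 in ES cells, not above background, then 3.99 (Day2), 6.20 (Day3), 6.96 (Day4) and 8.57 (Day7). It was higher at each stage from Day3 on, and rose at least 20.9-fold from ES cells to Day7 (2.13 to 4.86 on the log2 scale over the alternatives). Of 5 other endothelial markers 0 rose from ES to Day7 and 3 fell, Tek and Emcn were not above background on Day7, and the log2 of their summed signal was 13.47 in ES cells and 13.68 on Day7. The part of endothelial cells in the rise was not tested.

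Among the type II cadherins of the brain, Cdh12 and Cdh9 fell early and rose late. Cdh12 had a log2 signal of 8.82 in ES cells, then 8.33 (Day2), 6.87 (Day3), 6.87 (Day4) and 8.69 (Day7). It fell 3.87-fold from ES to Day3 and rose 3.55-fold from Day4 to Day7. Cdh9 had a log2 signal of 7.25 in ES cells, then 4.33 (Day2), 3.16 (Day3, not above background), 4.72 (Day4) and 6.25 (Day7). It fell 7.55-fold to Day2 (2.20-fold to 7.55-fold over the alternatives). From Day4 to Day7 it rose 2.88-fold, a rise that was 0.57 on the log2 scale under the alternative that lowered it most.

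Cdh8 had at its brighter probe signals of 8.40, 6.88, 7.22, 7.01 and 7.19 over the 5 arrays, and was 2.32-fold below ES cells on Day7 (-0.91 on the log2 scale under the alternative nearest to 0). Its second probe was above background on Day2 only, at 4.99, with a bound of 0.40 upward from ES cells. That probe gave no value from ES to Day7 and so could not show the fall. Cdh7, a cadherin of motor neuron pools and neural crest, was above background on Day2 (2.80) and Day7 (6.38) and at 3.60, 3.26 and 3.19 in ES cells, on Day3 and on Day4. Its rise of at least 5.03-fold from Day4 to Day7 was 0.94 on the log2 scale under the alternative that lowered it most.

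The remaining type II cadherins changed little or stayed near background. Cdh10, a brain cadherin, had signals of 6.88, 7.08, 6.89, 6.36 and 7.24 and no change of 2-fold. Cdh20 is known as a cadherin of motor neuron pools. Its signals were 5.41, 6.33, 4.90, 5.15 and 5.02, with Day3 not above background, and its measured changes were under 2-fold. Cdh18 and Cdh19 were above background on Day2 only. Cdh18 had signals of 4.07, 5.67, 3.64, 3.06 and 3.05 and rose at least 2.82-fold on Day2, while those of Cdh19 were 2.83, 2.88, 2.94, 2.68 and 2.87. Of the 8 genes raised on Day2 over all groups (12.9% of 62 with a value, against 10.7% of all genes), 6 were no longer past 2-fold under at least 1 alternative.

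Of the 9 other cadherins, Cdh13 showed the farthest measured change of all 73 genes from Day4 to Day7. It encodes T-cadherin, which is anchored to the membrane by a lipid and has no cytoplasmic domain. Over the 5 arrays its log2 signal was 6.17 in ES cells, then 3.76 (Day2), 5.45 (Day3, not above background), 4.66 (Day4) and 12.26 (Day7). The first 4 arrays were low and Day7 was high, with a rise of 7.60 (194-fold) that lay between 5.55 and 8.96 over the alternatives.

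The cadherin-related genes moved less. Cdhr1, a protein of photoreceptor outer segments, had signals of 5.72, 3.75, 6.64, 6.74 and 6.86 over the 5 arrays and was 2.20-fold above ES cells on Day7, or 0.61 on the log2 scale under the alternative that lowered it most. Its fall of 1.97 from ES to Day2 turned to a change of 0.06 without normalization. Cdhr2 links the microvilli of intestinal brush borders. Its signals were 11.64, 10.42, 10.43, 10.27 and 10.37, so that ES cells stood above the 4 later arrays, and it was 2.40-fold lower on Day7. Cdh26, an epithelial cadherin, lay between 10.33 and 11.32 on all 5 arrays. For Cdh16 and Cdhr5 the measured changes were under 2-fold and the others were bounds under 2-fold or gave no fold. Cdh23 and Cdhr3, above background on Day2 only, gave no fold in any comparison.

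Delta protocadherins rose from Day4 to Day7 in 6 of 8 cases, with 0 falls and a median change of 1.96, where 18.1% of all genes rose and 18.1% fell. Pcdh7 and Pcdh9 were not above background on Day4 at the probes used, so a rise was their only possible direction. Of the 6 above background on both arrays 4 rose, against 16.3% of all such genes. From ES to Day3, 2 rose and 1 fell among 7 with a value, and of all genes 15.6% rose and 10.2% fell. Pcdh9 rose here at its brightest probe only, and its other probes gave no value. Protocadherins of this family in brain guide axons and shape synapses. At the probes used, 4 of the 8 had their highest signal on Day7. Among genes above background on at least 1 array this share was 26.9% over all genes and 63.9% over the cadherins and protocadherins.

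Pcdh10, Pcdh8 and Pcdh7 had, at the probe that stands for each gene, the steepest rises in this family from Day4 to Day7, and their start regions are shown as for Cdh22, from RefSeq on GRCm38.p6 with CG in capitals. Pcdh10 lies at chr3:45378148-45378447 on the plus strand with 24 CG, a number reached by 20% of promoters. Pcdh8 lies at chr14:79771263-79771562 on the minus strand with 14 CG, reached by 36.3%. Pcdh7 lies at chr5:57717831-57718130 on the plus strand with 11 CG, reached by 41.4%. The median was 7 CG over all promoters and 11 CG over those counted for cadherins and protocadherins.
Pcdh10: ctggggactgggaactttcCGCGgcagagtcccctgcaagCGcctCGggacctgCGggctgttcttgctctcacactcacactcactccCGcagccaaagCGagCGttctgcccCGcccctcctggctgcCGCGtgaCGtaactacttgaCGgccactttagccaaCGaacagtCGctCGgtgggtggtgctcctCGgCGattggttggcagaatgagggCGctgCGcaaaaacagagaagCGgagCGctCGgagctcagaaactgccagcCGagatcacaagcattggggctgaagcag
Pcdh8: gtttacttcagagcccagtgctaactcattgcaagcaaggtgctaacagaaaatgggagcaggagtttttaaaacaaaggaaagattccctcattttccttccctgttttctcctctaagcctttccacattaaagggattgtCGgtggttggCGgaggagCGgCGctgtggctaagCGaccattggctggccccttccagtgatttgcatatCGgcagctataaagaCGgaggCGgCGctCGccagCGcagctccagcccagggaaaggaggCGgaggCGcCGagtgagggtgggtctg
Pcdh7: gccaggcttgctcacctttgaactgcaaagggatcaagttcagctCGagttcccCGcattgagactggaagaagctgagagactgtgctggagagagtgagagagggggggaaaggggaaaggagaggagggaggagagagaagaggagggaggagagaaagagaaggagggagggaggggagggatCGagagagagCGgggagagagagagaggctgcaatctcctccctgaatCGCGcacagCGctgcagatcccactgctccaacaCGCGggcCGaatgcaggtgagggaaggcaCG

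The letters CAGGTG, an E-box that can be bound by Zeb and Snail repressors, were searched on either strand. They occurred in a promoter of 5 of 26 cadherin and protocadherin genes for which one was counted, Pcdh7 among them, and in 20.2% of all promoters. Of the 11 counted genes that rose from Day4 to Day7 2 held it, so its share among them was near that of all promoters. The 26 counted genes include no clustered protocadherin and neither Cdh1 nor Cdh2. This share therefore does not stand for all the genes described here.

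Pcdh8 takes part in cell movements at gastrulation and in synaptic remodelling. Its log2 signal was 6.53 in ES cells, then 8.51 (Day2), 6.21 (Day3), 7.14 (Day4) and 12.46 (Day7). Day7 stood far above the other 4, with a rise of 5.32 (40.0-fold, and 4.68 to 6.55 over the alternatives) from Day4. Pcdh10 is needed for axon growth through the ventral forebrain. The log2 signal of the gene was 5.42 in ES cells, then 6.87 (Day2), 2.06 (Day3, not above background), 5.18 (Day4) and 11.08 (Day7). Day7 was again highest, with a rise of 5.90 (59.9-fold, and 4.48 to 7.34 over the alternatives), and its second probe was above background on Day2 and Day7, at 5.58 and 8.87. Pcdh7 had at its brightest probe a log2 signal of 2.81 in ES cells, then 4.97 (Day2), 3.05 (Day3), 4.08 (Day4) and 9.82 (Day7), above background on Day2 and Day7. The rise from Day4 to Day7 was at least 53.3-fold at this probe (3.28 to 7.22 on the log2 scale over the alternatives). A second probe, whose mean was 0.07 below, was above background on Day4 as well and rose from 4.70 to 8.49, a measured 13.9-fold, and the third rose at least 9.76-fold. All 3 probes were highest on Day7, but they differ in the size of the rise, which is therefore uncertain.

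Pcdh17 had the deepest early fall. It regulates presynaptic assembly, and its log2 signal was 9.56 in ES cells, then 5.48 (Day2), 5.20 (Day3, not above background), 6.48 (Day4) and 8.90 (Day7). ES cells and Day7 were high and the stages between them low. Pcdh17 fell 17.0-fold from ES to Day2 (-4.08 to -2.80 on the log2 scale over the alternatives) and rose 5.35-fold from Day4 to Day7 (1.79 to 3.82). Pcdh18, which is expressed in the embryo and brain, had signals of 8.77, 8.38, 8.28, 8.97 and 10.48. The first 4 lay close together, and it rose 2.85-fold from Day4 to Day7.

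Pcdh19, the gene of an X-linked epilepsy, peaked early. Its signals were 8.75 in ES cells, then 10.44 (Day2), 10.05 (Day3), 9.07 (Day4) and 9.82 (Day7). It rose 3.22-fold from ES to Day2, and its change of 0.75 from Day4 to Day7 stayed under 2-fold. Pcdh1, which is expressed in epithelia and brain, had signals of 11.74, 11.15, 11.75, 11.35 and 10.37 and was 2.59-fold lower on Day7 than in ES cells. For Pcdh9 the probes disagreed. The brightest had signals of 5.28 (not above background), 4.68, 8.37, 4.22 (not above background) and 5.55, highest on Day3, while another was above background on Day2 at 3.90 and on Day7 at 9.48. The third was also above background on Day2 and Day7 only, at 4.99 and 6.17. The direction of Pcdh9 between Day3 and Day7 is therefore uncertain. None of its 3 probes was above background on Day4, so that from Day4 to Day7 a rise was their only possible direction.

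Among the other non-clustered protocadherins, Pcdh12, an endothelial protocadherin, was not above background in ES cells (4.70) and lay between 5.49 on Day3 and 7.18 on Day7 on the later arrays, with 5.94 on Day4. It rose 2.37-fold from Day4 to Day7, or 0.74 on the log2 scale under the alternative that lowered it most. Pcdh20 was above background from Day4, at 5.48 and then 5.82, and at 3.84, 2.94 and 4.77 on the earlier arrays, of which only Day2 was above background. It rose at least 3.13-fold from ES to Day7, or 0.52 on the log2 scale under the alternative that lowered it most. Pcdh15, which forms the tip links of hair cells together with Cdh23, lay between 5.97 and 6.66 on all 5 arrays at the brightest of its 6 probes. The other probes disagreed with it. All 5 were above background on Day2, where one reached 7.35, and 2 of them on Day7, of which one went from 2.85 on Day4 (not above background) to 6.73, a rise of at least 6.38-fold.

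**Figure D3:**
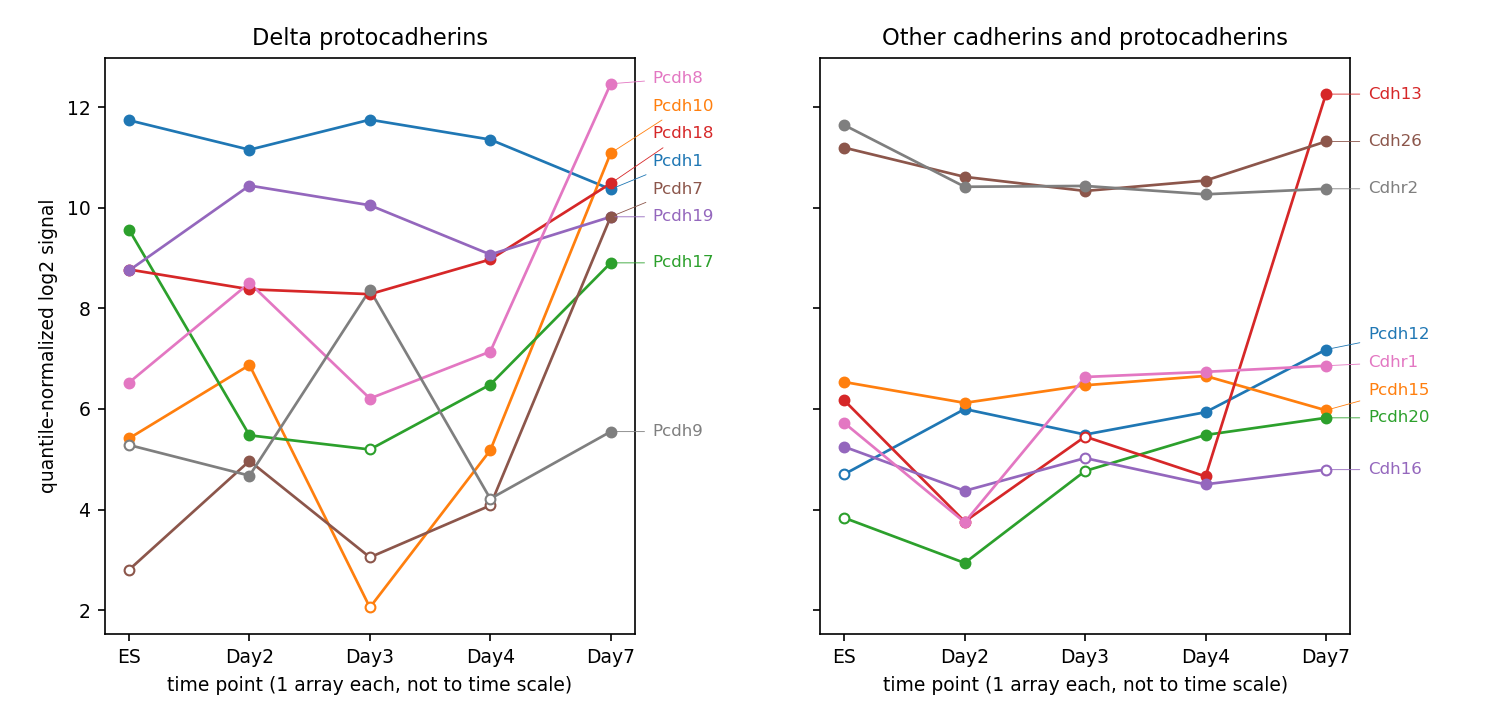
Quantile-normalized log2 signal of the delta protocadherins, and of 8 of the 12 other cadherins and non-clustered protocadherins, on the 5 arrays (1 point per array, open circles not well above background); heights of different genes cannot be compared. Pcdh8, Pcdh10, Pcdh7 and Cdh13 were low up to Day4 and reached 12.46, 11.08, 9.82 and 12.26 on Day7, and Pcdh17 dipped between ES cells and Day7.

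Most clustered protocadherins outside the Pcdhg cluster rose in the last step. From Day4 to Day7 34 of the 35 had a value, of which 28 rose and 1 fell, with a median of 3.75 against -0.12 over all genes, of which 18.1% rose and 18.1% fell. Of the other 5, Pcdhgc5 had a measured change under 2-fold, Pcdhac1 and Pcdhgb1 had bounds of a fall (at least 1.89-fold and 1.77-fold), and Pcdhga5 and Pcdhga10 gave no fold. Of these 28 rises 15 were in genes above background on Day7 and not on Day4, for which a rise was the only possible direction. Probes for alpha and gamma genes may read exons that variants of a cluster share, and the Pcdhb genes are close paralogs, so which variant a probe measured is uncertain.

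In the Pcdhb cluster 21 of 22 genes rose from Day4 to Day7. From ES cells to Day7 21 rose as well (17 under normexp background correction), but 19 of these were not above background in ES cells, so that a rise was their only possible direction, and the count is not read against the 24.8% of all genes that rose. The 9 genes above background on both Day4 and Day7 all rose, with a median of 4.54, whereas 16.3% of all genes above background on both arrays rose. The other 12 that rose were above background on Day7 and not on Day4, with bounds of at least 4.75-fold (Pcdhb19) to at least 88.4-fold (Pcdhb7). Under the alternative that lowered each most, these 2 bounds were 1.76-fold and 14.9-fold. Pcdhb1 alone was not above background on Day7, and was so only on Day2, at 3.21.

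Pcdhb7 had the highest bound in this step. Over the 5 arrays its log2 signal was 3.12 in ES cells, then 2.67 (Day2), 3.29 (Day3), 3.67 (Day4) and 10.52 (Day7), and only Day7 was above background. The bound lay between 3.89 and 7.93 over the alternatives. Pcdhb20 had signals of 2.89, 2.09, 3.18, 5.80 and 11.91, above background from Day4 on. It stood at least 213-fold above ES cells on Day7 (5.27 to 9.02 on the log2 scale over the alternatives) and 69.1-fold above Day4 (4.83 to 7.45). Pcdhb6 was the only gene of the 4 with a value in the cluster to rise from ES to Day3, by at least 2.70-fold, with signals of 2.14 (not above background), 3.02, 5.61, 6.67 and 11.11. This early bound was 0.43 on the log2 scale under the alternative that lowered it most. Pcdhb21, named after its values were seen, followed a like order from Day3, with 5.46, 7.71 and 12.25 on the last 3 arrays.

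Pcdhb22 and Pcdhb12 were above background throughout. Pcdhb22 had signals of 6.15, 3.07, 6.24, 6.89 and 9.62 and rose 6.61-fold from Day4 to Day7. Pcdhb12 changed least, with 6.74, 7.42, 7.24, 7.28 and 8.30. Its rise of 1.02 from Day4 to Day7 was just past 2-fold, and was 0.82 under the alternative that lowered it most.

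In the Pcdha cluster 6 of 7 genes rose from Day4 to Day7, with a median of 3.67, where 18.1% of all genes rose. For Pcdha4, Pcdha11 and Pcdha12, not above background on Day4, no other direction was possible. The 3 genes above background on both arrays all rose, against 16.3% of all such genes. Pcdhac2, a C-type variant that neurons do not choose at random, had signals of 6.34, 6.75, 7.96, 6.39 and 12.76. It was above background throughout, rose 3.08-fold from ES to Day3, fell 2.96-fold to Day4 and rose 82.2-fold to Day7 (4.84 to 7.62 on the log2 scale over the alternatives). Its second probe was above background on Day7 only, at 5.48, with a bound of 1.42 on the log2 scale from Day4 and no value for the earlier changes. Pcdhac1, the other C-type variant of the cluster, was the exception. Its signals were 5.21, 4.40, 4.38, 5.58 and 3.84, above background on Day2 and Day4 only, and the bound of its change from Day4 to Day7 was -0.92. Pcdha8 was at 7.55 on Day4 and 11.22 on Day7, a rise of 12.7-fold. The bounds for Pcdha4, Pcdha11 and Pcdha12 were 5.02, 3.40 and 4.49 on the log2 scale. Under the alternative that lowered each most they were 2.73, 1.76 and 2.37.

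Of the 6 Pcdhg genes 1 rose and 1 fell from Day4 to Day7, near the share of all genes (18.1% each way), and the median change was 0.00. Pcdhga9 was above background throughout, with signals of 12.84, 12.69, 13.75, 14.07 and 15.58, highest on Day7. It rose 2.85-fold from Day4 and 6.69-fold from ES cells, but its second probe was at 8.51 on both Day4 and Day7, and the rise from Day4 was 0.75 on the log2 scale under the alternative that lowered it most. Pcdhga1 had signals of 5.87, 6.39, 6.55, 6.61 and 5.60, and its fall of 1.01 in the last step turned to a change of 0.07 without normalization. Pcdhgb1 was at 6.14, 5.18, 7.08, 5.48 and 4.50 (not above background), and was at least 2.81-fold lower on Day7 than in ES cells (-0.55 on the log2 scale under the alternative nearest to 0). As 16 Pcdhg genes had no matched probe, these 6 do not stand for the cluster.

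**Figure D4:**
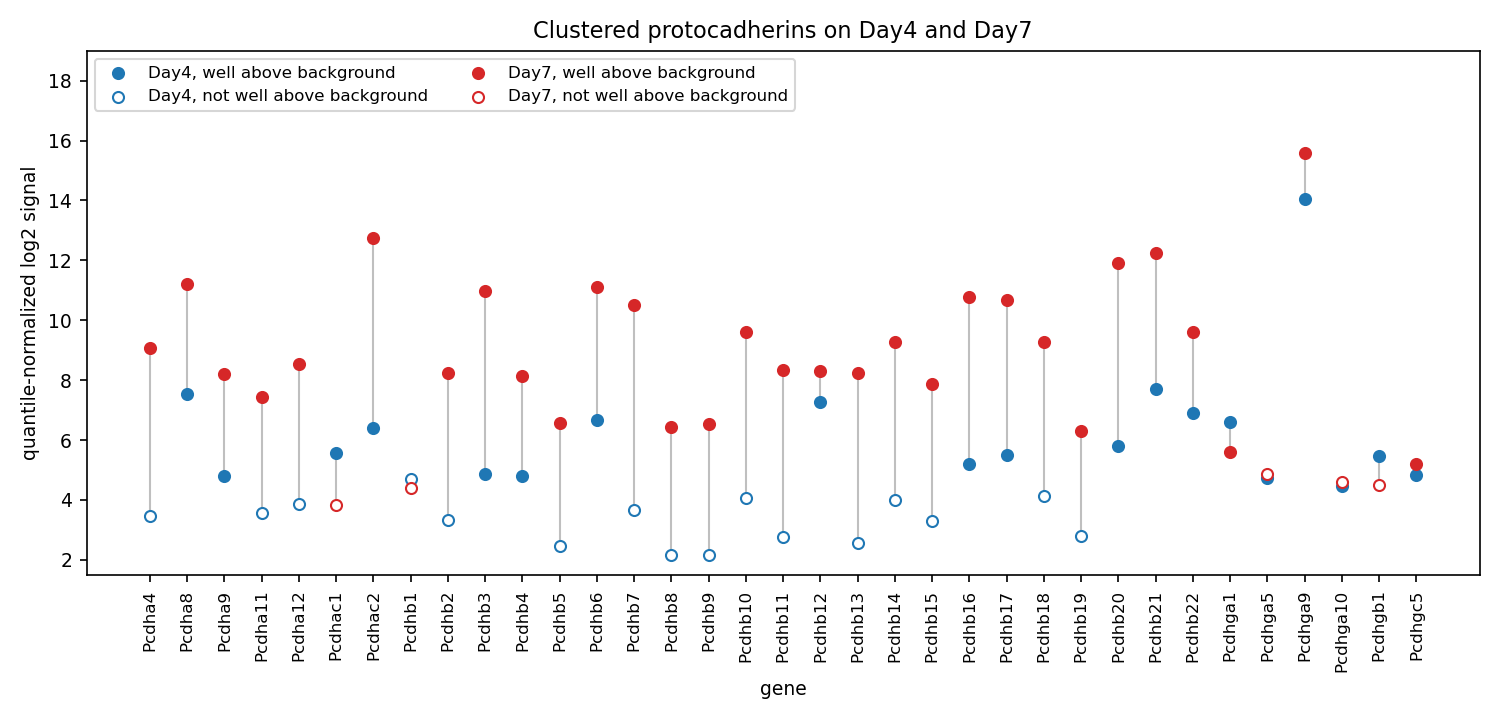
Quantile-normalized log2 signal of the 35 clustered protocadherins on Day4 (blue) and Day7 (red), 1 array each, with open circles for probes not well above background; heights of different genes cannot be compared. All Pcdhb genes but Pcdhb1 and all Pcdha genes but Pcdhac1 were at least 2-fold higher on Day7, while of the 6 Pcdhg genes 1 rose and 1 fell at least 2-fold.

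The counts of the 73 genes are set beside those of all genes step by step. From ES to Day2 8 of 62 with a value rose and 8 fell (12.9% each), against 10.7% and 11.3% of all genes. Of the 30 above background on both arrays 3 rose (10%) and 8 fell (26.7%), against 5.81% and 13.9% of all such genes. Of these 8 falls 4 stayed at least 2-fold under every alternative with a value. From ES to Day3 8 of 37 rose (21.6%) and 6 fell (16.2%), against 15.6% and 10.2%, but 5 of the 8 rises were in genes not above background in ES cells. Of the 24 above background on both arrays 3 rose (12.5%) and 4 fell (16.7%), against 13% and 9.67% of all such genes, so that the rises were near the share of all genes. From Day3 to Day4 7 of 50 rose (14%) and 3 fell (6%), against 3.62% and 4.87%. Among the 30 genes above background on both of these arrays 5 rose (16.7%) and 2 fell (6.67%), against 2.89% and 4.04% of all such genes, and 2 of the 7 rises stayed at least 2-fold under every alternative with a value. In these 3 comparisons the medians were 0.00, 0.08 and 0.01, beside 0.00, 0.06 and -0.01 over all genes. The first rests on 22 members with no fold, counted as 0. Among genes above background on both arrays the medians from ES to Day2 were -0.45 for the members and -0.07 for all genes, and with a 75th percentile shift those over all with a value were 0.52 and 0.04.

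From Day4 to Day7 45 of 67 genes rose (67.2%) and 4 fell (5.97%), against 18.1% and 18.1% of all genes, with a median of 2.33. The genes that fell were Cdh1, Cdh3, Cdh24 and Pcdhga1. Of the rises 18 were in genes above background on Day7 and not on Day4, Pcdh7 among them at its brightest probe, and 38 of the 45 stayed at least 2-fold under every alternative with a value. The exceptions were Cdh7, Cdh9, Pcdh9, Pcdh12, Pcdhb12, Pcdhb19 and Pcdhga9. Among the 43 genes above background on both arrays 27 rose (62.8%) and 3 fell (6.98%), against 16.3% and 17.9% of all such genes. From ES cells to Day7 45 of 63 rose and 6 fell, against 24.8% and 24.4% of all genes, but 31 of these rises were in genes not above background in ES cells, whose direction was fixed. Among the 28 genes above background on both arrays 14 rose (50%) and 5 fell (17.9%), against 20.9% and 24.4% of all such genes. Neuronal markers moved in the same step, with the log2 of the summed signal of 5 neuronal markers at 13.02 on Day4 and 18.39 on Day7, and that of 3 floor plate markers at 11.54 and 15.03. Of 4 neural crest markers 1 rose and 1 fell, and of 3 glial markers 0 rose and 0 fell. Of 6 mesoderm and endoderm markers 0 rose and 3 fell, namely Sox17, Gata4 and Gata6, and the log2 of the summed signal went from 11.32 on Day4 to 8.60 on Day7, in the step in which Cdh1, Cdh3 and Cdh24 fell. A sum is set mostly by its brightest probes. The part of these cells in the results was not tested.

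**Figure D5:**
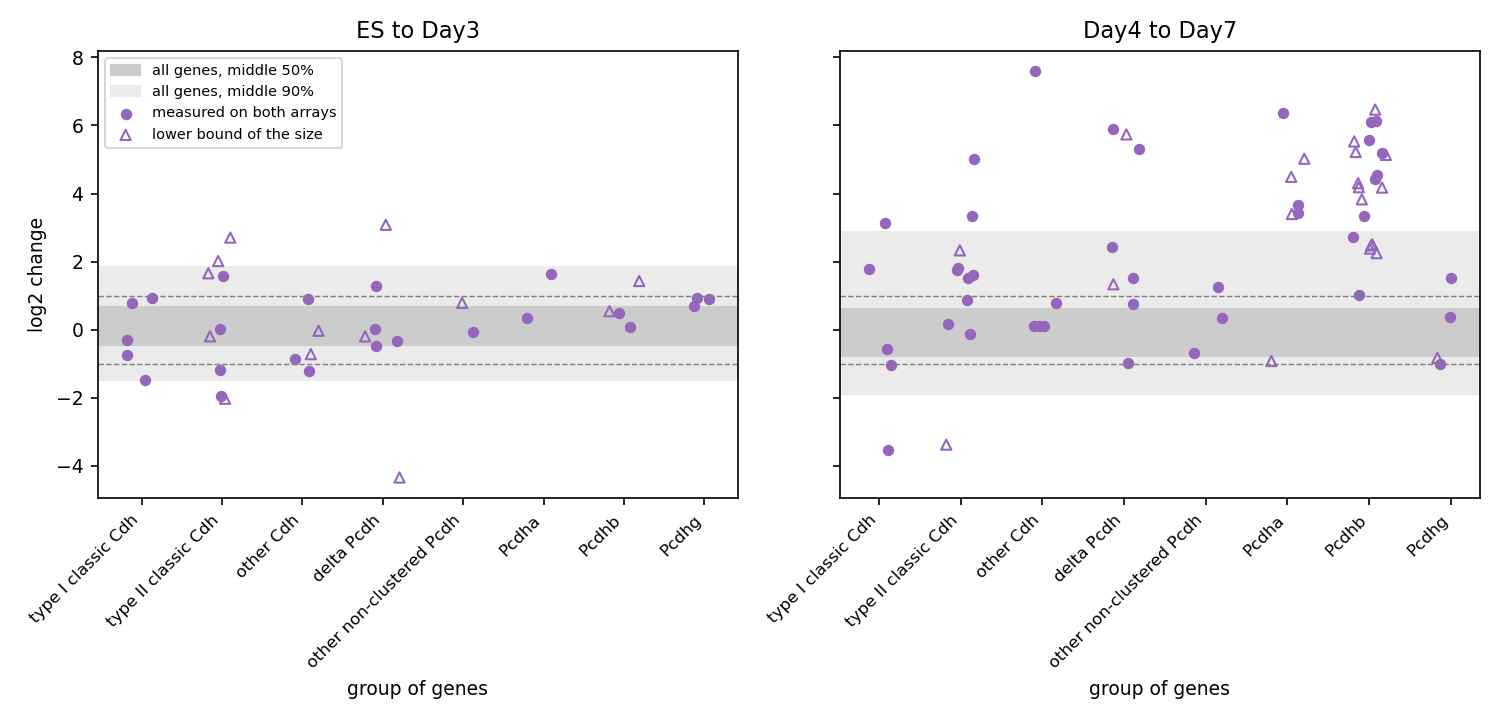
Log2 change of each gene with a fold, by group, from ES to Day3 and from Day4 to Day7 (filled circles measured on both arrays, triangles lower bounds of the size, dashed lines 2-fold), over bands that hold the middle 50% and 90% of all genes. The Pcdhb and Pcdha genes lie mostly above the bands from Day4 to Day7, and 45 of 67 genes were past 2-fold upward.

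Of 12 catenins and related cytoplasmic partners of the cadherins, 4 rose and 1 fell from ES to Day7, where 24.8% of all genes rose and 24.4% fell. The rises were in Ctnna2 (alphaN-catenin, a neural form) from 5.48 in ES cells to 14.43 on Day7, in Ctnnd2 (delta-catenin, also neural) from 5.76 to 11.74, in Arvcf, a catenin of the p120 family, from 8.03 to 11.51, and in Vezt (vezatin), a junction protein, from 5.79 to 8.99. Jup, the plakoglobin of desmosomes, fell by 1.40. Ctnnb1 (beta-catenin) lay between 13.95 and 14.54 and Ctnnd1 (p120-catenin) between 13.40 and 13.82 on the 5 arrays, and Ctnna1 (alphaE-catenin) changed by -0.71 from ES to Day7. Vcl (vinculin) rose by 1.32 from ES to Day3 and was back near its ES level on Day7.

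Of 14 other cadherin superfamily genes with a value 9 rose and 2 fell from ES to Day7, against the same 24.8% and 24.4% of all genes. The calsyntenins Clstn2 and Clstn1 rose by 7.80 and 1.71, and the receptor tyrosine kinase gene Ret by 5.67. Among the large cadherins of planar polarity and growth control, the bound for Fat3 was 5.94 in log2 units, and the rises were 3.07 in Fat4, 5.64 in Dchs1, and 1.63, 4.16 and 2.94 in Celsr1, Celsr2 and Celsr3. Fat1 fell by 1.44 and the desmosomal cadherin Dsg2 by 2.59, and Dsc2 rose by 3.15 from ES to Day3 and was 0.57 above ES cells on Day7.

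Genes known to act on Cdh1 and on the protocadherin clusters were read from lists. Of 10 repressors and maintainers of Cdh1 2 rose and 4 fell from ES to Day7, beside 24.8% and 24.4% of all genes. Zeb1 and Zeb2, repressors of Cdh1, rose by 2.88 and 4.03, whereas Snai1, Snai2 and Twist1 changed by -0.10, 0.50 and 0.22. Of the genes that maintain epithelial expression, Grhl2 fell by 4.63, Esrp1 by 4.39 and Esrp2 by 2.58, and the bound for Ovol1 was -1.55, while Ovol2 changed by 0.07. Of 8 genes that regulate clustered protocadherin promoters 0 rose and 3 fell from ES to Day7, against the same 24.8% and 24.4% of all genes. Dnmt3b, a DNA methyltransferase that methylates these promoters, had signals of 16.98, 16.22, 14.31, 13.27 and 11.99, lower on each later array, while the insulator gene Ctcf lay between 12.57 and 13.10. Wapl, which releases cohesin, fell by 2.08, and Smchd1 by 1.15.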

How the data were processed

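The authors deposited the Feature Extraction 10.5.1 output of each array, which gives spot intensities after the scanner software's background subtraction and before any normalization across arrays, per the file headers. A deposited table of log2 values equalled the log2 processed signal minus about the array's 75th percentile within 0.01 for 100% of probes. All its columns belonged to the 5 samples (0 unused).

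Control and outlier spots were left out, log2 intensities averaged per probe and quantile-normalized, after the study's legend, in limma 3.58.1 (R 4.3.3). Later steps used Python 3.11.15, numpy 2.4.6, pandas 2.3.3 and matplotlib 3.10.9. Accessions gave symbols through RefSeq (GRCm38.p6, names and promoters only, the array's header names mm9) for 26300 of 55681 probes. The 73 genes had 91 probes, 11 genes having more than 1, and the brightest on average stood for a gene. A probe not well above background was raised, unless already higher, to that array's floor, the lowest signal of any probe above background (2.60 on Day2 to 5.22 on Day3). A gene below background on both arrays of a comparison got no value. Where 1 side was above background but lay at or under the other side's value so raised, the gene got no fold and counted as 0 in medians. The steps were tested on simulated data.

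The members and lists were chosen with earlier results of these data known. Genes given a value on every array were the type I, type II and delta genes, other non-clustered genes changed at least 2-fold (Pcdh12 without its Day2 value), and in each cluster the farthest rise and fall from ES to Day3, Day4 to Day7 and ES to Day7. Clustered genes named beyond these were chosen after their values were seen. Alternatives were a 75th percentile shift, no normalization, normexp (offset 50, on median spot signals) before quantile, the deposited table, another detection flag, no filter, both arrays above background, the mean over probes, thresholds of 1.5-fold and 4-fold, and a rise on Day2 still present on Day3. Quantile normalization without the Day2 array was chosen after seeing the data.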

Additional observations from a re-analysis of the deposited data

How the results depend on the processing

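No paired analysis was possible because no stage had a replicate. No array could be left out of a group either, and slide could not enter as a block since it held Day7 alone. Of the 45 rises from Day4 to Day7, 38 stayed at least 2-fold under every alternative with a value, as did 36 of 45 from ES to Day7. So did 2 of 7 from Day3 to Day4, 3 of 8 from ES to Day3 and 2 of 8 from ES to Day2. Of the falls, 2 of 4, 4 of 6, 1 of 3, 5 of 6 and 4 of 8 did so in the same order of comparisons. Without normalization Cdh3 changed by 0.27 and Pcdhga1 by 0.074 from Day4 to Day7, and Cdhr1 by 0.062 from ES to Day2, each the opposite direction to the value above. The median of all genes then shifted by 0.27, -0.63, -0.48, 1.06 and 0.01 from ES to Day2, ES to Day3, Day3 to Day4, Day4 to Day7 and ES to Day7. Except where an alternative's construction shows it, the cause was not tested.

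From ES to Day2 23 members rose and 5 fell with the 75th percentile shift and with the deposited values, 27 and 5 without normalization and 2 and 4 under normexp. Rises were 50% of the members changed in the main setting, 82.1% with the shift and the deposited values, 84.4% without normalization and 33.3% under normexp. With both arrays above background 3 rose, with no filter 13 fell, at 1.5-fold 13 rose, at 4-fold 0 rose and 4 fell, and 1 rise was still present on Day3. The median was 0.52 with the shift and with the deposited values (0.04 over all genes), 0.75 without normalization (0.27), -0.25 with no filter and -0.45 with both arrays above background.

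From ES to Day3 5 rose and 11 fell without normalization (31.2% rises, against 57.1%), 5 rose under normexp, 14 with the other detection flag and with no filter, 3 with both arrays above background, 15 at 1.5-fold, and 3 rose and 2 fell at 4-fold. The median was -0.074 with the shift and with the deposited values (-0.12 over all genes), -0.58 without normalization, 0.26 with the other flag and 0.25 with the mean over probes. From Day3 to Day4 4 rose and 5 fell without normalization (44.4% rises, against 70%), 4 rose under normexp, 17 rose and 5 fell with the other flag and with no filter, 11 and 5 at 1.5-fold, and 2 and 1 at 4-fold. The median was 0.19 with the shift and with the deposited values (-0.03 over all genes), 0.23 with the other flag, 0.17 with no filter and 0.14 with both arrays above background.

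From Day4 to Day7 27 rose with both arrays above background, and 2 fell without normalization, 2 under normexp, 8 at 1.5-fold and 2 at 4-fold. The median was 3.60 without normalization (1.06 over all genes), 1.47 under normexp, 1.83 with the other flag, 1.77 with no filter, 1.61 with both arrays above background and 2.53 without the Day2 array. From ES to Day7 14 rose with both arrays above background and 2 fell at 4-fold. The median was 2.48 with the shift (-0.35 over all genes), 2.49 with the deposited values, 1.59 under normexp, 3.09 with the other flag, 0.71 with both arrays above background and 2.89 with the mean over probes. Signal over background limits what dim genes can show: of the 73 genes 36 had no value from ES to Day3 and 6 from Day4 to Day7.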
